A study of Mus musculus with 6 samples.

Results

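The tumour suppressor p53, its inhibitors MDM2 and MDM4, and 7 of its direct target genes were followed in 6 subcutaneous mouse tumours. These 10 genes (Trp53, Mdm2, Mdm4, Cdkn1a, Ccng1, Aen, Trp53inp1, Phlda3, Zmat3 and Sesn1) were taken by symbol from the 54532 Ensembl gene IDs of the deposited count matrix, in which each symbol belonged to 1 ID. All 10 passed the filter on low counts. The tumours grew from G422, a mouse glioblastoma line, placed under the skin of Kunming mice, an outbred stock. The line carried, by lentivirus, either a hairpin labelled shNgb (3 tumours) or the vector shVec (3 tumours). Ngb encodes neuroglobin, an oxygen-binding globin, and the series is titled as its knockdown, while the design text names Ngb itself as what was transfected, so shNgb stands below for the label. No drug or other treatment was given in either group, per the labels, and the age of the mice is not given in the sources used here. Both groups derive from a single line in host mice, so host cells can contribute RNA in both, in a share that was not measured.

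p53 is a transcription factor held low by MDM2, which marks it for degradation, and by MDM4, which blocks its transactivation. Damage or oncogenic stress frees p53, mostly by stabilising the protein rather than by raising its mRNA. Active p53 then switches on genes of arrest, repair and death, and Mdm2 among them, which closes a feedback loop. Many gliomas disable this circuit by mutation of p53 or by loss of the ARF inhibitor of MDM2. Counts per gene show neither protein nor sequence, so whether p53 is intact or active in these tumours was not measured.

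The libraries held between 21018697 and 25620667 reads in shNgb tumours and between 19630319 and 22427004 in shVec tumours. Ngb had 18, 19 and 11 reads in shNgb tumours and 28, 23 and 13 in shVec tumours, a log2 fold change of -0.59 with a 95% interval of -1.55 to 0.37, so a knockdown was not detected at this depth and spread. Among 11 glial and neural markers Olig1, Olig2 and Aqp4 had no read in any tumour, and Gfap had 6, 2 and 2 reads in shNgb and 0, 3 and 2 in shVec tumours. Nes (nestin), Vim (vimentin), Cd44 and Sox2 were the 4 markers of that list above 1 CPM. The defining glial markers of the list were thus absent or near zero.

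No gene of the p53 circuit differed detectably between the groups. None of the 10 genes was called higher or lower in shNgb tumours (edgeR, adjusted p = 0.9997 for each), and 5 of the 10 log2 fold changes were positive, with a median of 0.01. Over all 15203 genes tested, 0% were called in either direction, 50.9% had a positive log2 fold change and the median was 0.00. At an unadjusted p under 0.05, edgeR, DESeq2 and limma-voom each counted 0 of the 10 genes, where they counted 2.58%, 1.71% and 2.70% of all genes they tested. The 95% interval of the fold lay within 1.5-fold either way in 8 of the 10 genes, against 59.8% of all genes tested, and all 10 lay within 2-fold. Cdkn1a and Trp53inp1 were the 2 genes with wider intervals. In whole-tumour RNA, fewer cells of a type and less RNA per cell cannot be told apart.

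Levels per gene length ran over a wide range. The order of the genes was the same in both groups except for 2 pairs of neighbours, Ccng1 with Mdm2 and Sesn1 with Zmat3. By the FPKM values the authors deposited (reads scaled to gene length and library size), Trp53 was the most abundant, at 82.8 ± 5.08 FPKM in shNgb and 81.3 ± 4.43 FPKM in shVec tumours (SD, n = 3 each). That level stood above 96.9% of genes with reads in all 6 tumours in the shNgb group and above 96.7% in the shVec group. Phlda3 followed at 36.3 ± 2.27 FPKM in shNgb and 32.8 ± 1.36 FPKM in shVec tumours. Then came Ccng1, Mdm2, Aen, Cdkn1a and Mdm4, whose group means lay between 7.002 and 17.2 FPKM in shNgb and between 7.82 and 17.0 FPKM in shVec tumours. Neighbours in that stretch overlapped: Ccng1 exceeded Mdm2 in 4 of 6 tumours, Mdm2 exceeded Aen in 5 and Cdkn1a exceeded Mdm4 in 5, while Aen exceeded Cdkn1a in all 6. Sesn1 and Zmat3 were not separated, at 3.76 and 3.66 FPKM in shNgb and 3.61 and 3.68 FPKM in shVec tumours. Trp53inp1 was the lowest, at 1.61 ± 0.54 FPKM in shNgb and 1.87 ± 0.23 FPKM in shVec tumours. The order and the FPKM ratios between genes rest on the gene length used, which can differ from that of the expressed transcript. For Cdkn1a, all annotated exons together span 3553 bases, against 2080 in its longest coding transcript.

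**Figure D1:**
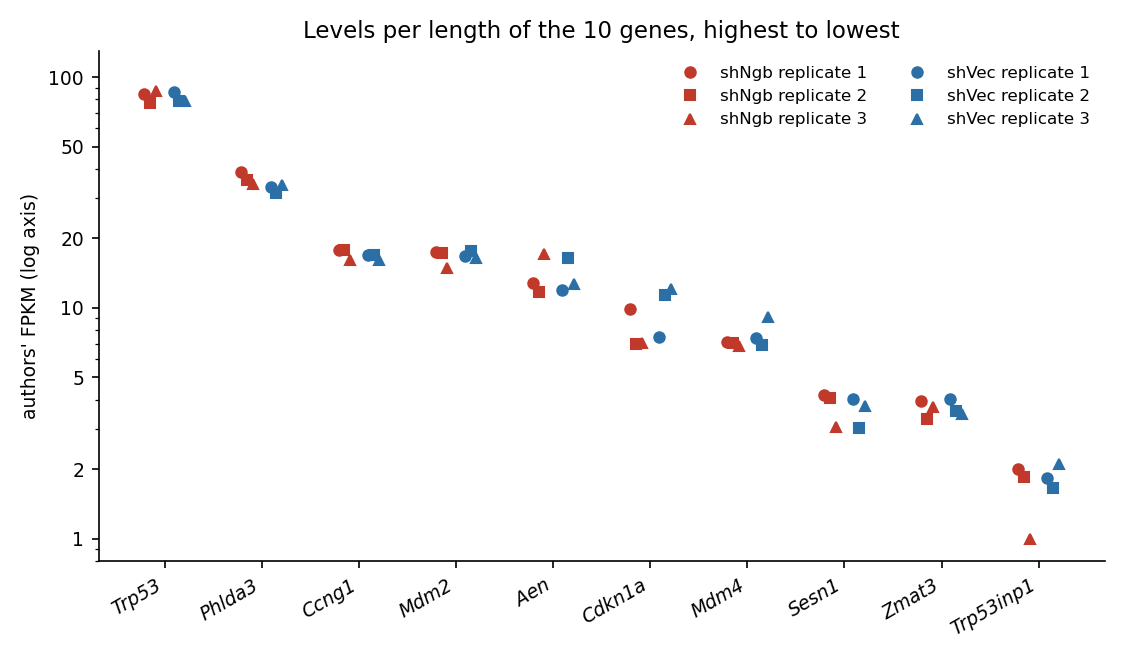
Authors' FPKM (log axis) of the 10 genes in each tumour, ordered by mean level, with shNgb tumours in red left of shVec tumours in blue and a marker shape per replicate number. Trp53 lies between 77.1 and 86.9 FPKM in all 6 tumours, above every value of the other genes.

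Trp53 (ENSMUSG00000059552, chromosome 11, 69580359 to 69591873, plus strand, GRCm38) encodes p53 itself. It had 343, 316 and 355 CPM in shNgb tumours, against 351, 321 and 319 CPM in shVec tumours, where CPM are reads scaled to a common library size after TMM scaling. The groups overlapped, and the spread within a group was 5.90% of the mean in shNgb and 5.34% in shVec. The log2 fold change of 0.03 (SE 0.08) corresponded to a fold of 1.02 with a 95% interval of 0.908 to 1.15 (edgeR, adjusted p = 0.9997). With 6264 to 9261 reads per library, counting error was small beside the spread between tumours.

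Mdm2 (chromosome 10, 117688875 to 117710758, minus strand), the ubiquitin ligase of p53 and itself a p53 target, had 89.1, 89.3 and 76.5 CPM in shNgb tumours and 85.9, 90.1 and 83.7 CPM in shVec tumours. The single low value was that of shNgb replicate 3, and the other 5 tumours lay within a narrow band. Its log2 fold change was -0.03 (SE 0.09), with a fold between 0.856 and 1.12 at 95%. Per unit of p53 message, Mdm2 stood at 0.207, 0.225 and 0.171 (FPKM ratio) in shNgb and at 0.195, 0.223 and 0.209 in shVec tumours, with overlap.

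Mdm4 (chromosome 1, 132959484 to 133030561, minus strand), a relative of MDM2 that binds p53 but has little ligase activity of its own, had 106, 106 and 102 CPM in shNgb tumours and 110.0, 103 and 136 CPM in shVec tumours. The 3 shNgb values were tight, and 1 shVec tumour, replicate 3, stood above the other 5. The log2 fold change of -0.15 (SE 0.11) became -0.03 without that tumour (edgeR, unadjusted p = 0.181 with all tumours and 0.751 without it). Without shVec replicate 2 it was -0.24 (edgeR, unadjusted p = 0.0577, adjusted p = 0.998), and the other 4 omissions lay between these values. By FPKM, Mdm2 exceeded Mdm4 in every tumour, by 2.45, 2.46 and 2.18 times in shNgb and by 2.27, 2.55 and 1.79 times in shVec tumours. By CPM, which are not scaled to length, Mdm4 exceeded Mdm2 in every tumour. Which of the 2 genes stood higher thus turned on the gene length used.

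Cdkn1a and Ccng1 are shown with sequence because they were the 2 genes, of the 8 that matched the promoter table, with a near-complete p53 response element close to an annotated start. The element is a pair of half-sites, each matching the p53 half-site consensus. That consensus reads the same on both strands. Pairs with a gap of at most 13 bases and at most 1 mismatch, with the central C and G of each half-site kept, were searched from 250 bases before to 50 bases after RefSeq starts on GRCm38.p6. They occurred in 0.627% of 32851 windows, and in 2 of those 8 genes. Trp53inp1 and Zmat3 were not searched. Capitals mark the pair, which holds 1 mismatch in each gene, in the stretches of 100 bases below, chr17:29090879-29090978 (plus strand) for Cdkn1a and chr11:40755422-40755521 (minus strand) for Ccng1, with letters credited to RefSeq.
Cdkn1a: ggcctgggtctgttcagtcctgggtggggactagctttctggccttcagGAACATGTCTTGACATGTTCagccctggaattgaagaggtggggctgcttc
Ccng1: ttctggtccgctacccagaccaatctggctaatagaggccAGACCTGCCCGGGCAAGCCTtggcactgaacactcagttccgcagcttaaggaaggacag
The Cdkn1a pair begins 51 bases before the upstream of its 2 start sites, and its first half-site also forms a pair without mismatch with a half-site that begins at base -73, across a gap of 12 bases. The Ccng1 pair begins 195 bases before the start. A single half-site without mismatch occurred in 8.36% of all windows and in those of Trp53, Mdm2, Aen and Sesn1 besides these: GGACTTGCCC in Trp53, GAACTTGCCT in Mdm2, GGGCTTGTCC in Aen and AAGCTTGTTT in Sesn1. A match describes letters and not binding, and the windows leave out introns, where p53 sites of several targets lie.

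Cdkn1a (ENSMUSG00000023067, chromosome 17, 29090976 to 29100727, plus strand), whose product p21 inhibits cyclin-dependent kinases and carries much of the arrest downstream of p53, varied widely from tumour to tumour. It had 35.3, 25.1 and 25.3 CPM in shNgb tumours, against 26.8, 40.6 and 43.1 CPM in shVec tumours. One tumour of each group crossed into the other: shNgb replicate 1 was high and shVec replicate 1 was low. The means were 28.6 ± 5.86 CPM in shNgb and 36.8 ± 8.77 CPM in shVec tumours (SD, n = 3 each), and the log2 fold change of -0.37 (SE 0.21) had a 95% interval of -0.85 to 0.11. The difference was smaller than the spread between tumours allows to be called (edgeR, unadjusted p = 0.117, adjusted p = 0.9997). The value depended on single tumours. Without shNgb replicate 1 or shVec replicate 1 the log2 fold change was -0.55 in both cases, with an unadjusted p in edgeR of 0.0260 and 0.0114, and without shVec replicate 3 it was -0.24 (edgeR, unadjusted p = 0.322). The adjusted p was at least 0.877 over all 6 omissions. Relative to p53 message, Cdkn1a stood at 0.117, 0.0906 and 0.0810 (FPKM ratio) in shNgb and at 0.0870, 0.144 and 0.154 in shVec tumours. An unclassified gene on the opposite strand shares 273 exon bases with Cdkn1a and had 0 to 10 reads per library.

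Ccng1 (chromosome 11, 40748552 to 40755311, minus strand), cyclin G1, which recruits a phosphatase to MDM2, had 62.6, 63.3 and 57.3 CPM in shNgb tumours and 59.6, 60.0 and 56.9 CPM in shVec tumours. All 6 values lay close together, and the fold of 1.04 had a 95% interval of 0.915 to 1.18. The SD was 5.34% of the mean in shNgb and 2.89% in shVec tumours. For Cdkn1a, the other gene with such an element, it was 20.5% in shNgb and 23.8% in shVec tumours.

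**Figure D2:**
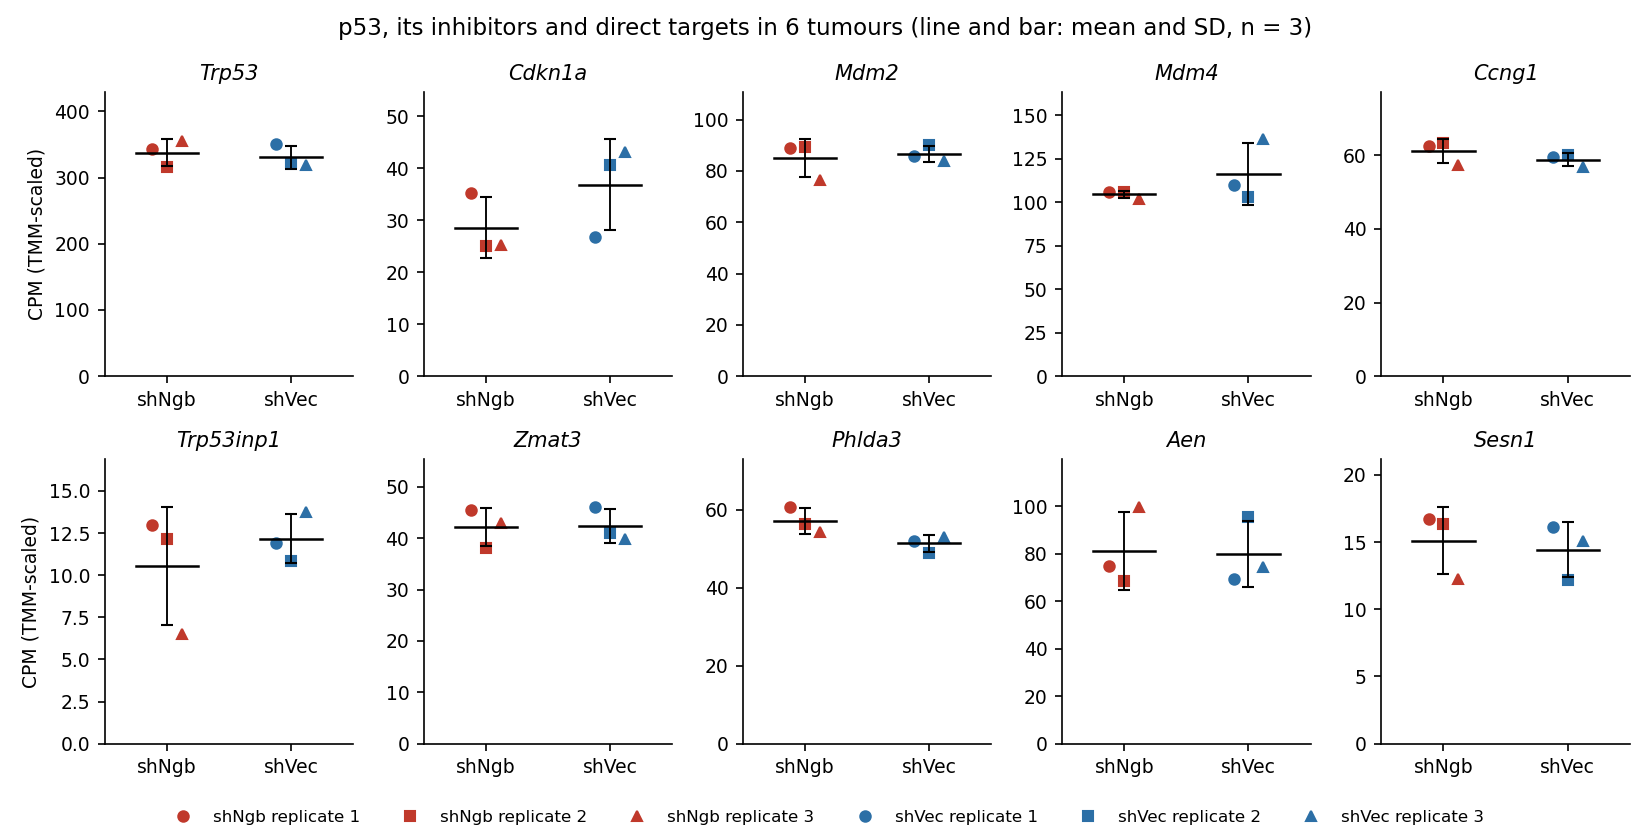
CPM of the 10 genes in each tumour (vertical axes from 0), shNgb in red left of shVec in blue, with the mean as a line and the SD as a bar (n = 3) and a marker shape per replicate number. Phlda3 is the gene whose 3 shNgb values all exceed its 3 shVec values, and Cdkn1a has 1 tumour of each group within the range of the other.

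Among targets linked to cell death, Phlda3 varied little within a group, and Aen and Trp53inp1 varied more. Phlda3 (chromosome 1, 135766119 to 135769136, plus strand), which keeps AKT from the membrane, had 60.8, 56.3 and 54.3 CPM in shNgb tumours, against 52.1, 49.1 and 53.1 CPM in shVec tumours. The groups were narrowly separate, and this was the 1 gene of the 10 without overlap. Over all genes tested, 3.67% lay higher without overlap and 3.43% lower. Its log2 fold change of 0.15 (SE 0.08, 95% interval -0.04 to 0.34) was not called (edgeR, unadjusted p = 0.106, adjusted p = 0.9997).

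Aen (chromosome 7, 78895854 to 78911209, plus strand), a nuclease induced in apoptosis, had 74.9, 68.5 and 99.8 CPM in shNgb tumours and 69.5, 95.6 and 74.2 CPM in shVec tumours. Each group held 1 high tumour, shNgb replicate 3 and shVec replicate 2, and the fold of 1.02 had a 95% interval of 0.775 to 1.33. Those 2 tumours also had the highest summed level of T and NK cell markers, 39.0 and 18.9 CPM, though shNgb replicate 2 came close at 17.7 CPM with the lowest Aen level; the part of host cells in the Aen level was not tested.

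Trp53inp1 (chromosome 4, 11156431 to 11174379, plus strand), a nuclear body protein of stress-induced death and autophagy, had 12.97, 12.1 and 6.51 CPM in shNgb tumours and 11.9, 10.8 and 13.7 CPM in shVec tumours. The low value belonged to shNgb replicate 3, and without that tumour the log2 fold change was 0.04 in place of -0.21 (SE 0.25). The fold lay between 0.580 and 1.29 at 95%, the widest interval of the 10 genes and drawn from 170 to 295 reads per library.

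Zmat3 (chromosome 3, 32334792 to 32366014, minus strand), an RNA-binding protein that affects splicing, had 45.4, 38.1 and 43.0 CPM in shNgb tumours and 46.1, 40.9 and 39.9 CPM in shVec tumours. Its fold of 0.996 (95% interval 0.849 to 1.17) was the nearest to 1 of the 10 genes. Sesn1 (chromosome 10, 41809935 to 41908424, plus strand), a stress-induced inhibitor of mTORC1 signalling, had 16.7, 16.4 and 12.2 CPM in shNgb tumours and 16.1, 12.1 and 15.1 CPM in shVec tumours. Each group held 2 higher tumours and 1 lower one, and the fold of 1.05 ran from 0.798 to 1.37 at 95%.

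**Figure D3:**
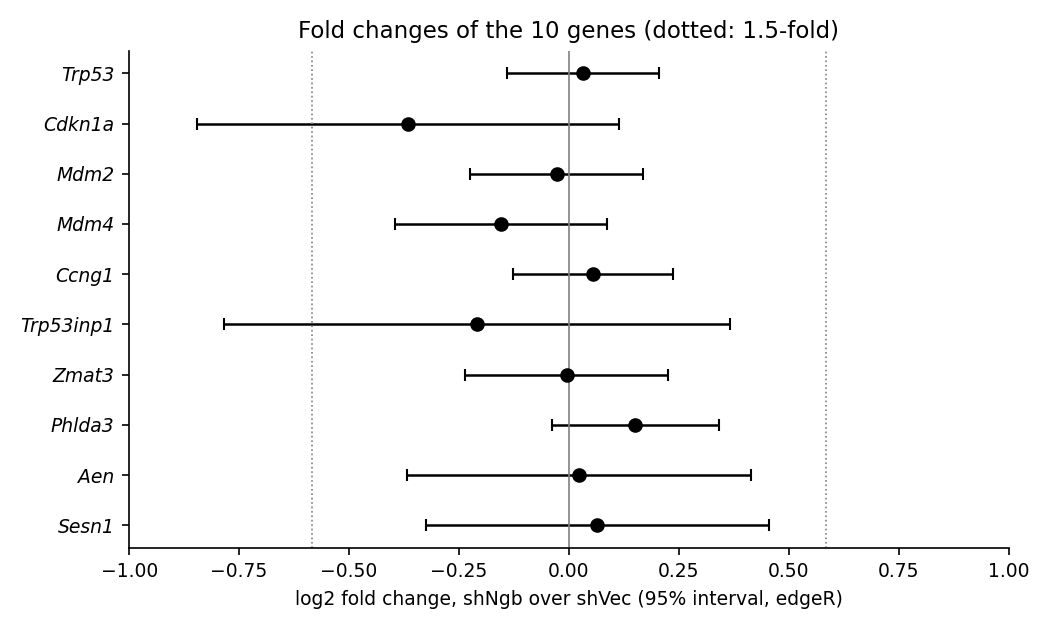
Log2 fold change of each gene, shNgb over shVec, from edgeR (points) with its 95% interval (bars), and dotted lines at a fold of 1.5 in either direction. All 10 intervals include 0, and those of Cdkn1a (-0.85 to 0.11) and Trp53inp1 (-0.79 to 0.37) pass the lower dotted line.

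The tumours differed in which of the 10 genes they held high or low, with no tumour high or low throughout. shNgb replicate 3 had the lowest value in 3 genes and the highest in 2, shNgb replicate 2 the lowest in 4 and the highest in 1, and shVec replicate 3 the highest in 3 and the lowest in 1. For 8 ratios between genes, groups were set against each other by an exact permutation test (two-sided), whose smallest p with 3 against 3 is 0.1. Ccng1 over Mdm2 was the 1 ratio without overlap, at 1.02, 1.03 and 1.09 in shNgb and 1.01, 0.963 and 0.983 in shVec tumours (FPKM ratio, exact permutation p = 0.1, adjusted over the 8 ratios 0.533). The smallest possible p of 0.1 is above the threshold for a call, so no ratio could have passed, with or without the correction. This test therefore cannot decide whether a ratio differed between the groups.

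For Trp53, Mdm2 and Cdkn1a, the 3 genes of nearest pattern over the 6 tumours were sought among 11406 named protein-coding genes, by the root mean square difference of log2 CPM centred on the 6 libraries. For Trp53 these were Stat6 (0.01), Mrpl51 (0.02) and Lrrc47 (0.02), where Trp53 itself varied by 0.07 around its mean. For Mdm2 they were Sptbn1 (0.02), Pikfyve (0.02) and Usmg5 (0.03), where Mdm2 varied by 0.08. For Cdkn1a, which varied by 0.32, they were Nrip2 (0.10), Adgra2 (0.10) and Ncam1 (0.10). Nrip2 had 1.11 to 1.54 CPM in shNgb and 1.09 to 2.14 CPM in shVec tumours. That is near the lowest mean admitted, 1 CPM, so its likeness rests on few reads. Adgra2, an adhesion receptor, had 35.3, 25.7 and 29.4 CPM in shNgb and 31.7, 43.3 and 43.6 CPM in shVec tumours. Being picked for likeness, it shared the high shNgb replicate 1 and low shVec replicate 1 of Cdkn1a. None of the 10 genes was among those listed for another of them. With 3 genes listed out of 11406, this says little about whether the 10 genes vary together.

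No regulator of p53 was called either. Of 27 upstream regulators and cofactors, all 27 tested, 0 were called in either direction, 9 were positive and 18 negative, the median log2 fold change was -0.03, and all 27 intervals lay within 1.5-fold. Chek2, a checkpoint kinase that phosphorylates p53, had 26.9, 26.6 and 29.0 CPM in shNgb tumours and 24.5, 23.3 and 23.3 CPM in shVec tumours. Its groups did not overlap, and its log2 fold change of 0.22 (SE 0.10) was not called (edgeR, unadjusted p = 0.0525, adjusted p = 0.9997). Of the 27, 2 lay higher without overlap, Chek2 and Setd7 (log2 fold change 0.05), and 0 lower. Over all genes tested, 3.67% lay higher without overlap and 3.43% lower. Hipk2, another p53 kinase, had a log2 fold change of -0.12, Smyd2, a methyltransferase that acts on p53, -0.08, and Atr, the kinase of replication stress, -0.10, all with overlap.

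Cdkn2a, which encodes both the CDK inhibitor p16 and ARF, was abundant, at 91.2 ± 28.6 FPKM in shNgb and 88.6 ± 3.93 FPKM in shVec tumours (SD, n = 3 each), 4.01 to 6.66 times the Mdm2 level of the same tumour in shNgb and 5.13 to 5.36 times in shVec. The counts do not separate its 2 products. It had 116, 137 and 70.6 CPM in shNgb tumours, against 106, 108 and 99.1 CPM in shVec tumours, so the shNgb values lay on both sides of the shVec values. Of the 6 other CDK inhibitors, this gene included, 0 were called, 3 were positive and the median log2 fold change was 0.02. With 1 tumour left out that median ran from -0.07 without shNgb replicate 2 to 0.18 without shNgb replicate 3. Cdkn1c (p57) stood at 5.04 and 4.31 CPM in shNgb and shVec tumours, Cdkn2d (p19) at 23.4 and 21.4 CPM, and Cdkn1b (p27) at 60.1 and 61.2 CPM. Trp63 and Trp73, the relatives of p53, were at or next to zero: Trp73 had 2 reads in all, both in shNgb replicate 3, and Trp63 had 1, in shVec replicate 2.

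Among 32 other direct p53 targets, 28 were tested and 0 were called. Of those 28, 15 were positive, the median log2 fold change was 0.02, and the lowest values stretched further than in the 10 genes above. Unadjusted p under 0.05 was reached by 3 targets, all lower in shNgb, where 1.22% of all genes tested were lower by that rule. The list was chosen with earlier results of these data known, so this count is no evidence of an excess. Ephx1, Tigar, Fas and the long non-coding Trp53cor1 had 0 to 21 reads per library and were not tested.

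Plk2, a polo-like kinase, had 27.4, 29.5 and 24.3 CPM in shNgb tumours, against 31.3, 52.6 and 63.4 CPM in shVec tumours. Gadd45a, a stress-induced growth arrest gene, had 26.6, 32.3 and 17.8 CPM in shNgb and 35.7, 36.5 and 57.2 CPM in shVec tumours. In both genes every shNgb value lay under every shVec value, and the log2 fold changes were -0.86 (SE 0.24) and -0.75 (SE 0.26). Neither was called (edgeR, unadjusted p = 0.00881 and 0.0243, adjusted p = 0.9997 for both). Of the 28 tested targets, 3 lay lower without overlap (Plk2, Gadd45a and Ddit4) and 1 higher. Over all genes tested, 3.43% lay lower without overlap and 3.67% higher.

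Sesn2, the sestrin paralog of Sesn1 that also answers to the stress factor ATF4, had 46.5, 55.8 and 39.5 CPM in shNgb tumours and 52.8, 65.3 and 64.3 CPM in shVec tumours, with overlap. Its log2 fold change was -0.36 (SE 0.14; edgeR, unadjusted p = 0.0288), beside 0.06 (SE 0.17) for Sesn1. Ddit4, an mTORC1 inhibitor that is also a hypoxia target, had 330.3, 245 and 113 CPM in shNgb tumours and 495, 333 and 419.6 CPM in shVec tumours, without overlap (log2 fold change -0.86, SE 0.39; edgeR, unadjusted p = 0.0661). Gdf15, a secreted stress cytokine chosen after its values were seen, had the lowest log2 fold change of the list, -1.16 (SE 0.54), with 5.35, 10.6 and 6.02 CPM in shNgb and 6.42, 15.2 and 27.6 CPM in shVec tumours and overlap. Of 9 tested paralogs of the 10 genes, 0 were called and 4 were positive, among them Isg20 at 0.17, while Ccng2 (-0.17) and Isg20l2 (-0.08) were negative.

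**Figure D4:**
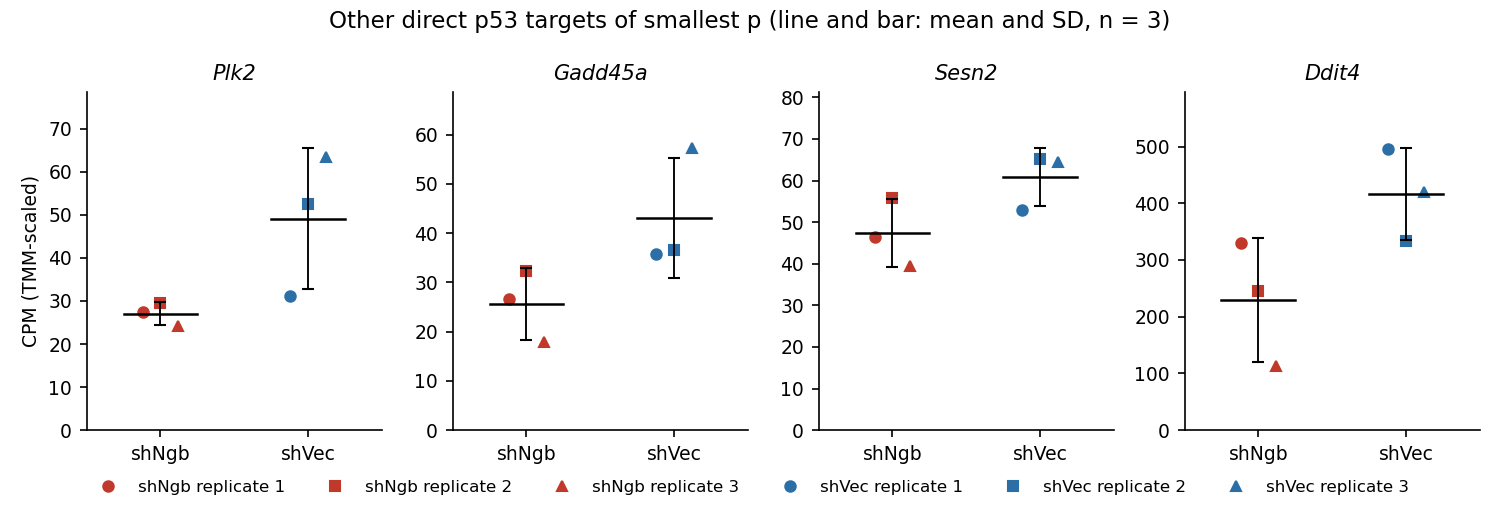
CPM of the 4 other p53 targets of smallest p in each tumour (vertical axes from 0), shNgb in red left of shVec in blue, mean as a line and SD as a bar (n = 3). The shNgb values lie under all shVec values in Plk2, Gadd45a and Ddit4 and overlap with them in Sesn2, and none of the 4 genes was called.

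Cell cycle genes that p21 represses through the DREAM complex, a repressor assembled on their promoters, were read beside Cdkn1a. Of 20 tested, 0 were called, 19 were positive and the median log2 fold change was 0.08, against 0.00 for all genes tested. Kif23, a cytokinesis motor, had 126, 115 and 135 CPM in shNgb and 118, 109 and 113 CPM in shVec tumours, with overlap. Birc5 (survivin) stood at 95.1 ± 11.8 CPM in shNgb and 84.9 ± 1.71 CPM in shVec tumours, and Mki67, the proliferation marker, at 395 ± 21.2 CPM in shNgb and 363 ± 30.2 CPM in shVec tumours (SD, n = 3 each). E2f1, a transcription factor of S phase entry, was the 1 negative member, at -0.14. These genes rise and fall together in the cell cycle, so the 19 signs are not independent observations. With 1 tumour left out the median ran from 0.03 to 0.10.

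**Figure D5:**
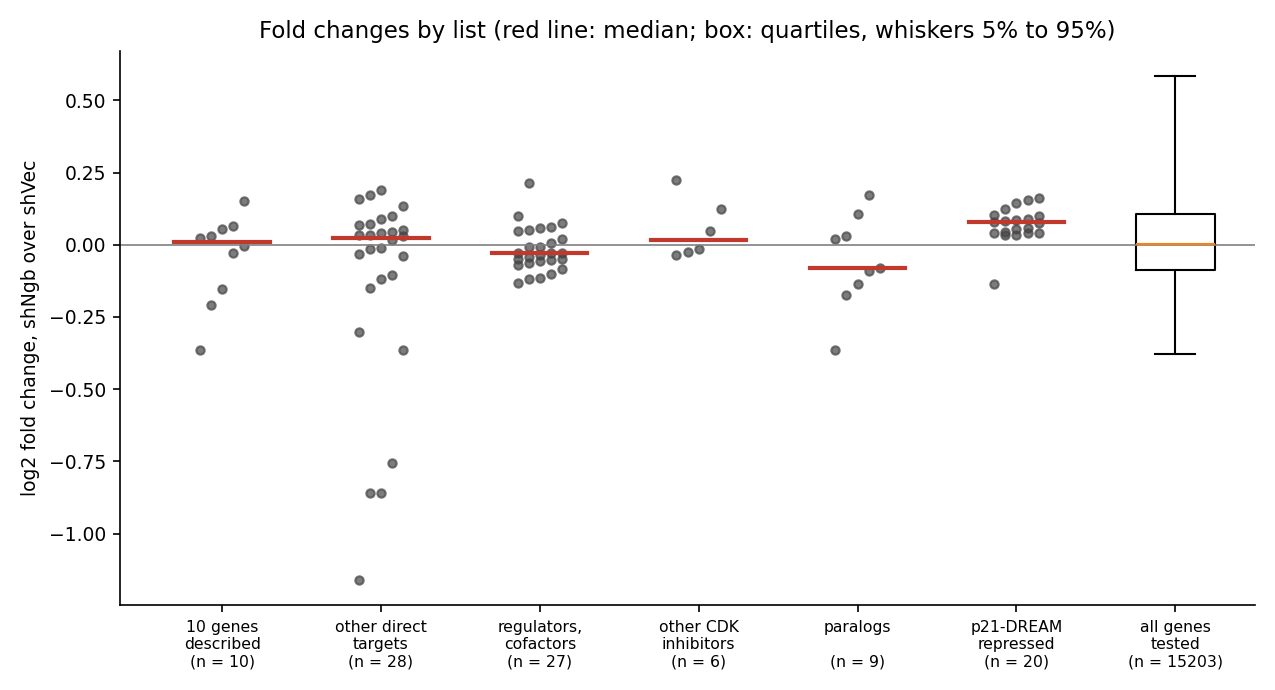
Log2 fold change (edgeR, shNgb over shVec) of each tested gene by list, with the median of the list as a red line, beside a box of all 15203 genes tested (quartiles, whiskers from 5% to 95%). Medians lie between -0.08 (paralogs) and 0.08 (p21-DREAM repressed genes), and 4 other direct targets (Gdf15, Ddit4, Plk2 and Gadd45a) lie at -0.75 or lower.

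Markers of macrophages, T and NK cells, fibroblasts, endothelium and muscle varied between tumours. Whether G422 or host cells supplied their reads was not tested. Of the tested markers of these 5 lists, 0 were called. All 10 macrophage markers had a positive log2 fold change, with a summed level of 122 to 306 CPM in shNgb and 103 to 198 CPM in shVec tumours. So had the 9 tested T and NK cell markers of 12, with 4.195 to 39.0 CPM in shNgb and 4.23 to 18.9 CPM in shVec tumours. The lowest T and NK sum, 4.195 CPM, was that of shNgb replicate 1. Over all genes tested, 50.9% of log2 fold changes were positive. Markers of a cell type can vary together, so their signs are not independent observations. Fibroblast markers summed to 1238 to 2570 CPM in shNgb and 1827 to 2144 CPM in shVec tumours, with 8 of 9 tested log2 fold changes positive. Col3a1 was the largest part of each sum, at 605 to 1666 CPM in shNgb and 1345 to 1582 CPM in shVec tumours. At an unadjusted p under 0.05 in edgeR, 3 of those 9 were higher and 0 lower, where 206 of all 15203 genes tested were higher. Endothelial markers summed to 66.5 to 81.5 CPM in shNgb and 74.1 to 79.0 CPM in shVec tumours. The 6 tested muscle markers of 10 had a negative log2 fold change, with sums of 9.74 to 13.2 CPM in shNgb and 10.02 to 40.3 CPM in shVec tumours. The sum of 40.3 CPM was that of shVec replicate 2 alone, beside 10.02 and 14.0 CPM in shVec replicates 1 and 3. No marker of these 5 lists was without reads in all 6 tumours. In the glial and neural list, the 4 tested markers, Nes, Vim, Cd44 and Sox2, all had a negative log2 fold change and 0 were called. Nes had 439, 383 and 420 CPM in shNgb and 477, 545 and 496 CPM in shVec tumours, without overlap. Among all genes tested, 3.43% lay lower without overlap. The part of host cells in the levels of the p53 genes was not tested.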

How the data were processed

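RNA sequencing was run on 3 shNgb and 3 shVec tumours, grouped by sample title. The cell line label carries another number in each sample, whereas title and source give G422 for all. Per the labels' protocols, Trizol RNA went into Illumina TruSeq libraries, a kit that does not mark strand. The submitters' processing notes name Bowtie 0.12.2 and the builds mm8 and mm10 with no role; no source used here names the counter or annotation. The authors deposited raw read counts per Ensembl gene and FPKM per library. FPKM served only for levels between genes and for ratios.

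Symbols and coordinates came from GENCODE M21 (GRCm38), with 1 listed symbol matched through RefSeq synonyms. Counts were tested with edgeR 4.0.16 (R 4.3.3): default filter, TMM, robust quasi-likelihood F-test, Benjamini-Hochberg over 15203 genes, called at an adjusted p under 0.05, with 95% intervals from the F statistic. The design text calls the tumours independent but no label ties each to its own mouse, and p-values measure spread between tumours that may be partly technical. Members and lists were chosen with earlier results of these data known. Named are all members, up to 4 genes of smallest p per list and the 3 of nearest pattern; any other gene was chosen after its values were seen. blastn 2.17.0 (95% identity, 250 bases) found no copy of a member besides the gene overlapping Cdkn1a. Alternatives were RLE and upper quartile scaling, 2 filters, DESeq2 1.42.0, limma-voom (limma 3.58.1), a replicate block, a threshold of 0.1 and leaving out each library. The pipeline was tested on simulated counts. There edgeR called 24 of 67 genes changed 1.5-fold, 32 of 67 changed 2-fold and 57 of 66 changed 4-fold, with 10 false calls. Most changes of 1.5-fold or 2-fold were thus missed in that simulation.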

Additional observations from a re-analysis of the deposited data

How the results depend on the processing

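Under the 13 refits, 0 of the 10 genes were called in any, though Cdkn1a reached an unadjusted p under 0.05 in 2 that left out a tumour, and the threshold of 0.1 called 0. The genes called over the whole table numbered 5 with DESeq2, 3 without a filter beyond 1 read and 1 with the replicate block, against 0 in the fit reported, and 0 with any 1 tumour left out. Deviations of same-numbered tumours from their group means correlated across genes at 0.28, -0.24 and -0.11. Pairs of unlike number ran from -0.31 to 0.38. These values do not settle whether same-numbered tumours were paired. Genes higher in shNgb numbered 4 to 6 of 10 and the median ran from -0.04 to 0.02 with 1 tumour left out. Of 130 refitted fold changes of the 10 genes, 13 turned sign. Zmat3 turned to 0.0012 without the filter and to 0.013 with upper quartile scaling. With 1 tumour left out, log2 fold changes ran from -0.0075 to 0.079 for Trp53, -0.065 to 0.040 for Mdm2, -0.39 to 0.042 for Trp53inp1, -0.064 to 0.063 for Zmat3, -0.16 to 0.17 for Aen and -0.045 to 0.19 for Sesn1; the cause was not tested. The list medians then ran from -0.037 to 0.030 for the other direct targets, -0.037 to -0.0051 for regulators, -0.074 to 0.18 for CDK inhibitors and -0.20 to 0.018 for paralogs. With 3 tumours a group, differences within the intervals given cannot be told from 0.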

Other observations

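Cdkn2a and Cdkn2b, neighbouring genes of CDK inhibitors, took the same order in the shNgb tumours. Cdkn2a had 116, 137 and 70.6 CPM in shNgb and 106, 108 and 99.1 CPM in shVec tumours, and Cdkn2b (p15), chosen after its values were seen, had 55.2, 67.3 and 33.8 CPM in shNgb and 59.6, 48.1 and 52.3 CPM in shVec tumours. In both genes shNgb replicate 2 was the highest of the 6 tumours and shNgb replicate 3 the lowest. Other genes, also chosen after their values were seen, had the same extremes. Sesn3 had 46.3 CPM in shNgb replicate 2 and 22.9 CPM in shNgb replicate 3, and Pdgfrb had 134 and 46.9 CPM. The order was thus not particular to this pair. Phlda3 over Cdkn1a, both p53 targets, was 3.92, 5.10 and 4.90 (FPKM ratio) in shNgb and 4.43, 2.76 and 2.81 in shVec tumours (two-sided exact permutation p = 0.2, adjusted over the 8 ratios 0.533).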
